A study of Mus musculus with 6 samples.

Results

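The TNF receptor superfamily genes examined here were 10 genes of the mouse aorta, namely Tnfrsf1a, Tnfrsf1b, Ltbr, Tnfrsf14, Tnfrsf12a, Fas, Tnfrsf21, Eda2r, Cd40 and Tnfrsf19. They were found by symbol in a count table of 55335 genes, and all 10 passed the filter on low counts that left 16612 genes for testing. They were chosen by family membership together with the measured log2 fold change between ages, with Tnfrsf21 known to be higher at 6 months, so the age differences of these receptors are given as descriptions without a test. RNA was sequenced from the aorta of WT mice of the strain labelled c57b6l (male C57BL/6 in the study's methods), 3 at 6 weeks of age (young) and 3 at 6 months (aged), with 1 library per replicate and no treatment named in the labels. Mice of 6 months are adult rather than old, which limits the aged group as a model of vascular aging. The methods describe dissection of the adipose tissue around the vessel, and the cells of the vessel were not separated.

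Receptors of the TNF superfamily are membrane proteins with cysteine-rich repeats outside the cell that bind ligands of the TNF family. One branch carries a death domain inside the cell, through which Tnfrsf1a, Fas and Tnfrsf21 recruit adaptors that lead to NF-kappa B activation or to caspases, while receptors such as Tnfrsf1b, Ltbr, Cd40 and Tnfrsf12a recruit TRAF proteins directly. In the vessel wall, signals of this family are known for inducing adhesion molecules on endothelium and for acting on smooth muscle growth and survival.

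The libraries held 31049632 to 45832185 counts, and 3 counts corresponded to 0.0619 to 0.106 CPM (counts scaled to library size with TMM factors, as CPM). The markers of aortic smooth muscle fitted the label, with a summed level of 28250 to 40480 CPM over 8 markers. Several libraries stood apart. Young replicate 1 had 305.6 CPM of Xist against 0.204 to 0.636 in the other libraries and 1.09 CPM of the Y-linked Ddx3y against at least 44.8, which goes against a male label, and its cardiac markers summed to 372 CPM against 82.6 to 96.7 elsewhere. Aged replicate 2 had 1951 CPM of brown adipocyte markers, with 132 to 630 in the other 5 libraries, and aged replicate 3 had 1765 CPM of endothelial markers, with 402.5 to 547 elsewhere. Each endothelial marker was highest in aged replicate 3, but by unlike margins. Pecam1 was at 870 CPM there against 167 to 225 elsewhere, and Erg at 54.8 CPM against 45.7 to 52.8. White adipocyte markers were present in every library, at 1035 to 2853 CPM. Receptor values are also given without the libraries that stood apart. In whole tissue, a different number of cells of a type and a different amount of RNA per cell cannot be told apart.

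**Figure D1:**
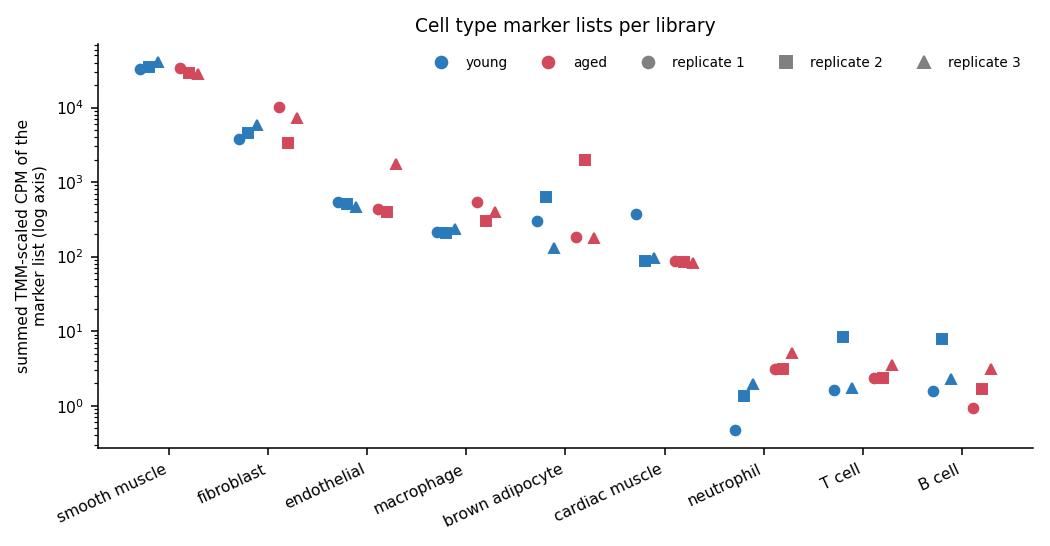
Summed TMM-scaled CPM (log axis) of each cell type marker list, 1 point per library, colored by group and shaped by replicate. Aged replicate 3 lies highest in endothelial markers (1765 CPM), aged replicate 2 in brown adipocyte markers (1951 CPM) and young replicate 1 in cardiac muscle markers (372 CPM). The macrophage sum is higher in each aged library (302 to 545 CPM) than in each young library (205 to 236 CPM), though not every marker is. Without the marker Mertk, aged replicate 2 does not exceed young replicate 1.

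The 10 genes lay on 7 chromosomes and were all protein-coding. On chromosome 6 of GRCm38 (GENCODE M21), Ltbr (125306571 to 125313885) and Tnfrsf1a (125349362 to 125362484) were neighbours separated by 35.5 kb, with Scnn1a between them. Tnfrsf1b (145213463 to 145246870) and Tnfrsf14 (154921933 to 154928563) lay on chromosome 4, Tnfrsf12a (23675445 to 23677468) and Tnfrsf21 (43016555 to 43089189) on chromosome 17. Fas was on chromosome 19 (34290666 to 34327772), Eda2r on X (97333840 to 97377216), Cd40 on chromosome 2 (165055627 to 165072948) and Tnfrsf19 on chromosome 14 (60963875 to 61046490). Fas and Tnfrsf19 each overlap a noncoding gene in this annotation (Gm27818 and Gm41168), and the other receptors overlap none.

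Promoters were read from RefSeq (GRCm38.p6) for 9 of the receptors, all but Cd40, as the 250 bases before the annotated start. Those of Tnfrsf21 and Eda2r are shown because these receptors were higher in each aged library than in each young library, and that of Fas because it is, like Eda2r, known as a p53 target and was lower in aged aorta on average. Capitals mark the GC box (GGGCGG), the TATA box (TATAAA), the CCAAT box (CCAAT), an AP-1 motif (TGANTCA) and an E-box (CACGTG), each searched on both strands. The first lies at chr17:43016305-43016554 on the plus strand, the second at chrX:97377210-97377459 on the minus strand and the third at chr19:34290409-34290658 on the plus strand.
Tnfrsf21: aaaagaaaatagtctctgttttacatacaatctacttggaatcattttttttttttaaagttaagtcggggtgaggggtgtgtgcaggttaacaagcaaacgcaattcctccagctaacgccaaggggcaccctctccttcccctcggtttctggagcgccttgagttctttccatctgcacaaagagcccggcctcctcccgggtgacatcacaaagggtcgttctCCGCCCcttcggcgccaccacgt
Eda2r: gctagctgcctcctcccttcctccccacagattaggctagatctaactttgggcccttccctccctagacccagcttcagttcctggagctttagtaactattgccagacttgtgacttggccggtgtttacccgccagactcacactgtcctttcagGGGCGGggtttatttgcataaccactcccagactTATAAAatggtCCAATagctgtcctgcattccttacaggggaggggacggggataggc
Fas: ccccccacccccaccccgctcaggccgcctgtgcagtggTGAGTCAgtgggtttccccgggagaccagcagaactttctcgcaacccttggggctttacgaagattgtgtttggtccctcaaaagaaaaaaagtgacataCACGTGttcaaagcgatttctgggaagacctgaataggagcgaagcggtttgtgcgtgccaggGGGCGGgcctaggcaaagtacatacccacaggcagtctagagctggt
The window of Eda2r held a TATA box 53 to 58 bases and a CCAAT box 43 to 47 bases before the start, motifs found in 12.4% and 33.8% of all 32851 promoters and in none of the other 8 receptors with a promoter. The window of Fas held the AP-1 motif 205 to 211 bases before the start, which 6.75% of all promoters hold. A GC box was found for 7 of the 9 receptors, all but Tnfrsf1a and Tnfrsf14, and in 32.7% of all promoters. The receptor count takes any window of a gene, whereas the percentages are per promoter. Tnfrsf19 had windows at different starts, and not each of them held a GC box. The NF-kappa B consensus motif and a lone p53 repeat unit, shorter than the full p53 site, were found in 3.9% and 7.13% of all promoters. The p53 unit was RRRCWWGYYY, where R is A or G, W is A or T and Y is C or T. Neither motif occurred in these windows for any of the 9. Matches of letters are a description and do not show that a factor binds.

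Scaled for gene length, as FPKM over all 6 libraries, the receptors fell into an abundant and a rare set. Tnfrsf1a, the receptor through which most cells respond to TNF, was the most abundant at 30.2 ± 3.71 FPKM (SD, n = 6), and its lowest library (25.9) lay above the highest of Ltbr (25.3). Ltbr, the lymphotoxin beta receptor, was at 22.4 ± 2.73 FPKM, Tnfrsf12a, the receptor of TWEAK, at 19.7 ± 5.68 and the death receptor Fas at 19.2 ± 6.36 FPKM (SD, n = 6 each). The ranges of these last 3 overlapped, so their order is not separated by the spread between libraries. Fas was followed, after a gap without overlap, by Tnfrsf1b at 1.80 ± 0.802 FPKM, the TNF receptor of immune and endothelial cells. Tnfrsf21 was at 1.67 ± 0.812, Tnfrsf14 at 0.701 ± 0.423, Eda2r at 0.434 ± 0.176, Cd40 at 0.247 ± 0.216 and Tnfrsf19 at 0.153 ± 0.0572 FPKM (SD, n = 6 each), and each overlapped its neighbour in this order. The 4 abundant receptors made up 92.9% to 96.2% of the summed FPKM of the 10 in every library.

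Within this sum, Fas took 22.6%, 23.7% and 24.5% of the FPKM in young replicates 1, 2 and 3, and 18%, 14.4% and 14.7% in aged replicates 1, 2 and 3. Tnfrsf1a took 31.1%, 31.6% and 25.3% in the young libraries and 32.8%, 33.5% and 35.1% in the aged ones. In both cases the groups did not overlap, in opposite directions. Eda2r took 0.265% to 0.339% in young and 0.542% to 0.675% in aged aorta, also without overlap. A share depends on the other 9 receptors as well as on the gene itself. In CPM the groups overlapped for Tnfrsf1a and Fas. How often other genes separate by such a share was not counted.

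**Figure D2:**
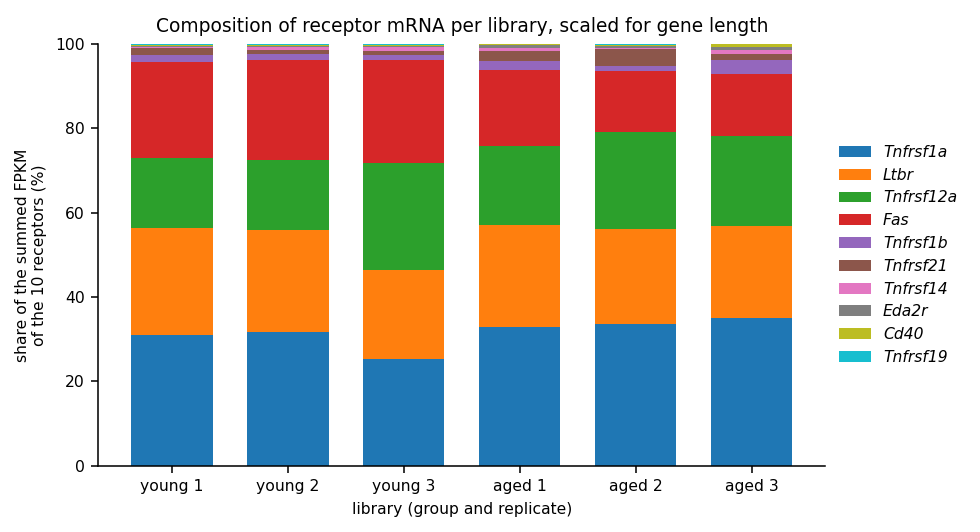
Stacked bars of each receptor's share (%) of the summed FPKM of the 10 receptors, 1 bar per library. The 4 lowest segments, Tnfrsf1a, Ltbr, Tnfrsf12a and Fas, fill 92.9% to 96.2% of each bar, and the segment of Fas is shorter in the aged libraries (14.4% to 18%) than in the young ones (22.6% to 24.5%).

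The age difference was fitted with edgeR (quasi-likelihood) over all 16612 genes. None of the 10 receptors had an adjusted p below 0.05, where 0% of all genes tested did. At an unadjusted p below 0.05 there were 2 receptors, Tnfrsf21 and Eda2r, both higher in aged aorta, against a background of 10.4% of genes (5.56% higher and 4.82% lower). DESeq2's adjusted p passed for 1 receptor, Tnfrsf21, with a background of 1.82% (1.29% higher), and limma on FPKM passed for 0 receptors. Because the receptors were proposed from this same contrast, nothing is read from these counts. In CPM, 8 of 10 log2 fold changes were positive with a median of 0.31, where 52.1% of all genes tested were positive with a median of 0.02. In 2 receptors (Tnfrsf21 and Eda2r) every aged library lay above every young library, as in 7.74% of all genes, and in 1 (Tnfrsf19) every aged library lay below, as in 8.78%. Without aged replicate 3 these were again 2 receptors above and 1 below, where 12.2% and 13% of all genes were.

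Tnfrsf21, or death receptor 6, is known from neurons, lymphocytes and endothelium. It was at 5.94, 3.71 and 4.25 CPM in young replicates 1, 2 and 3 and at 10.8, 14.6 and 7.57 CPM in aged replicates 1, 2 and 3. The groups did not overlap, and the highest library was aged replicate 2. The means were 4.64 ± 1.17 and 11.0 ± 3.49 CPM (SD, n = 3 each), at a log2 fold change of 1.24 (standard error 0.32). With 1 library left out the log2 fold change lay between 0.98 (without aged replicate 2) and 1.47 (without young replicate 1), so neither library set its direction. Aged replicate 2, where it was highest, had the most brown adipocyte markers and the lowest fibroblast sum (3379 CPM, against 3755 to 10080 CPM elsewhere). Young replicate 2, where Tnfrsf21 was lowest, had the next most brown adipocyte markers (630 CPM). The part of these cell types in the level of Tnfrsf21 was not tested.

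Eda2r, also called XEDAR, binds the A2 form of ectodysplasin and is known as a p53 target. It was at 1.49, 2.01 and 1.89 CPM in young replicates 1, 2 and 3, from 72, 70 and 65 counts, and at 4.51, 2.89 and 4.74 CPM in aged replicates 1, 2 and 3, from 150, 109 and 134 counts. All aged libraries lay above all young ones, with the least distance for aged replicate 2. The means were 1.80 ± 0.276 and 4.05 ± 1.01 CPM (SD, n = 3 each), at a log2 fold change of 1.17 (standard error 0.33) that lay between 1.05 and 1.37 with 1 library left out. Its ligand gene Eda, which encodes both the A1 and the A2 form, stayed at 3.94 to 6.34 CPM in young and 5.49 to 6.11 CPM in aged aorta, at a log2 fold change of 0.10 (standard error 0.26). The Edar receptor for the A1 form was at 0 counts in 4 libraries and at 21 and 17 counts in young replicates 2 and 3.

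Fas, the receptor of Fas ligand, was at 41.8, 48.9 and 60.2 CPM in young replicates 1, 2 and 3 and at 42.0, 26.7 and 38.5 CPM in aged replicates 1, 2 and 3. In CPM the groups overlapped by the narrow margin between young replicate 1 and aged replicate 1, and without young replicate 1 they did not, when 17.1% of all genes lay wholly below. In FPKM they did not overlap, with 19.3 to 29.2 in young and 11.1 to 17.4 in aged aorta. The share of all genes that lay wholly below in FPKM was not counted. The log2 fold change was -0.49 (standard error 0.22) and lay between -0.63 and -0.32 with 1 library left out. FPKM here is scaled by all reads of a library, of which genes of the mitochondrial genome took 14.9% to 21.2% in young and 23.1% to 30.4% in aged aorta, and on that scale the median log2 difference of all tested genes was -0.12 with a pseudocount of 1 and -0.19 with 0.1, against 0.02 in CPM. Relative to these medians, Fas was lower on each scale. Fas ligand (Fasl) had 0 counts in all 6 libraries, which allows a level of up to 0.0619 to 0.106 CPM.

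Tnfrsf1a and Tnfrsf1b both bind TNF, and their groups overlapped. Tnfrsf1a was at 72.2, 82.1 and 78.4 CPM in young replicates 1, 2 and 3 and at 96.3, 78.2 and 115 CPM in aged replicates 1, 2 and 3. Aged replicate 2 fell within the young range and the other aged libraries above it. The log2 fold change was 0.32 (standard error 0.18). Tnfrsf1b was at 6.38, 5.86 and 5.80 CPM in the young libraries and at 9.30, 4 and 15.4 CPM in aged replicates 1, 2 and 3. Its aged libraries lay on both sides of the young ones, at a log2 fold change of 0.67 (standard error 0.45) that was 0.15 without aged replicate 3 and 1.04 without aged replicate 2. Per length, Tnfrsf1a was 16.8, 20.7 and 20.0 times Tnfrsf1b in the young libraries and 15.3, 29.0 and 11.1 times Tnfrsf1b in the aged ones, so the aged spread spanned the young values. Without aged replicate 2, every aged library lay above every young one for 5 receptors (Tnfrsf21, Eda2r, Tnfrsf1a, Tnfrsf1b and Ltbr), with a background of 17.5% of all genes for the same libraries.

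Macrophages and endothelial cells both express Tnfrsf1b. The 10 macrophage markers, led by Lyz2 and C1qa, were all higher on average in aged aorta, where 52.1% of all genes tested were. EdgeR called 0 of them, DESeq2 called 4 (1.82% of all genes), and 8 were at an unadjusted p below 0.05 (10.4%). In 4 of the 10 every aged library lay above every young one, as in 7.74% of all genes. Lyz2 and C1qa overlapped, with aged replicate 2 (59.2 and 14.8 CPM) below young replicate 1 (64.7 and 17.6 CPM). The markers summed to 205 to 236 CPM in young and 302 to 545 CPM in aged aorta. Mertk, with a log2 fold change of 0.02, made up 158 of 302 CPM in aged replicate 2 and 70.2 of 214 CPM in young replicate 1. With Mertk left out, the sum of aged replicate 2 fell just below that of young replicate 1. The order of the sums in the aged libraries was replicate 1, 3 and 2, while Tnfrsf1b followed the order 3, 1 and 2. Endothelial markers, of which 7 of 8 were higher, summed to 461 to 547 CPM in young and to 430, 402.5 and 1765 CPM in aged replicates 1, 2 and 3. The part of either cell type in the level of Tnfrsf1b was not tested.

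**Figure D3:**
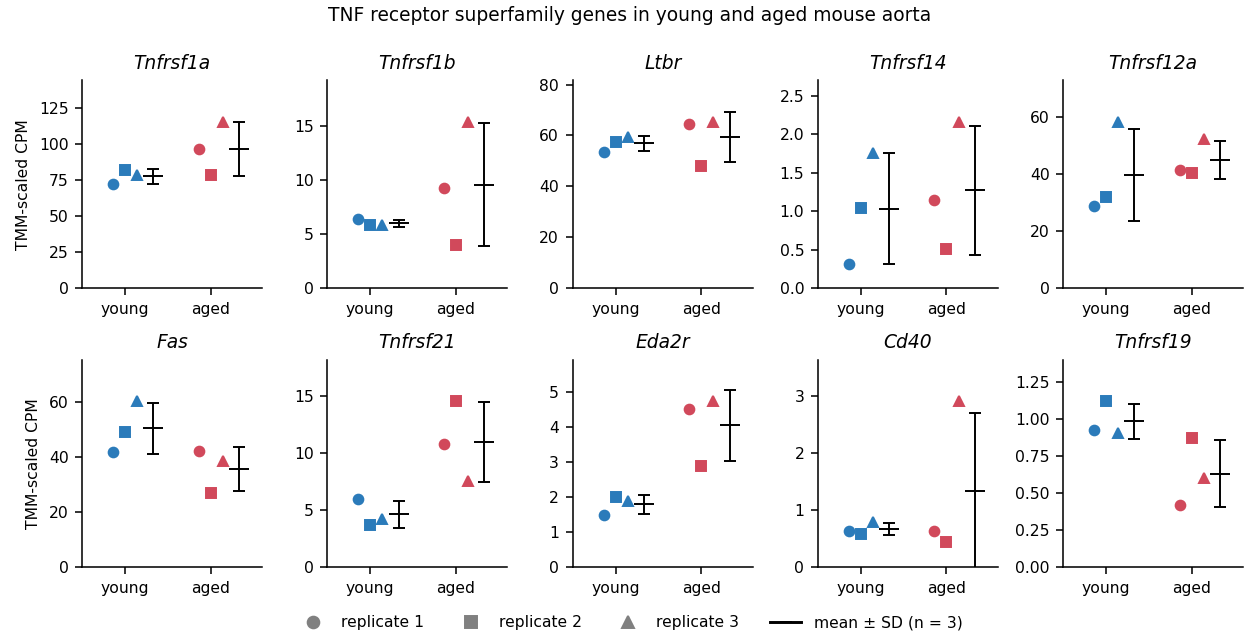
TMM-scaled CPM of each receptor by library, in young (blue) and aged (red) aorta, with symbols for replicates and black bars for the mean ± SD of 3 libraries; axes start at 0 and differ between genes, and the lower end of the aged Cd40 bar is cut at 0. The red points of Tnfrsf21 (7.57 to 14.6) and Eda2r (2.89 to 4.74) lie above all blue points, and those of Tnfrsf19 (0.421 to 0.875) below them.

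Cd40, a receptor of B cells, macrophages and endothelium that responds to T cell help, depended on a single library. It was at 0.640, 0.575 and 0.787 CPM in young replicates 1, 2 and 3 and at 0.632, 0.451 and 2.90 CPM in aged replicates 1, 2 and 3, from 82 counts in the last and 17 to 31 counts in each other library. The log2 fold change was 0.99 (standard error 0.76) with all libraries and -0.30 without aged replicate 3. That library also had the most endothelial markers, and in it Sele, an endothelial adhesion molecule induced by TNF, was at 2.94 CPM against 0.146 to 0.512 elsewhere. Sele was chosen after its values were seen, and the part of endothelial cells in the level of Cd40 was not tested. B cell markers were scarce in all libraries (0.933 to 7.73 CPM summed over 6 genes) and highest in young replicate 2. The ligand gene Cd40lg had 2 counts in aged replicate 2 and 0 in the other libraries.

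Ltbr and Tnfrsf14 share the ligand LIGHT, encoded by Tnfsf14. Ltbr was at 53.4, 57.6 and 59.6 CPM in young replicates 1, 2 and 3 and at 64.5, 47.9 and 65.4 CPM in aged replicates 1, 2 and 3. The aged libraries again enclosed the young range, and the log2 fold change of 0.06 (standard error 0.17) was below its error. Tnfrsf14, also named HVEM, was at 0.310, 1.03 and 1.75 CPM in the young libraries and at 1.14, 0.504 and 2.16 CPM in the aged ones. Its 15 to 61 counts gave a log2 fold change of 0.30 (standard error 0.77), which was -0.32 without aged replicate 3 and -0.13 without young replicate 1. Lymphotoxin genes and Tnfsf14 were at the limit of detection, with at most 12 counts of Lta, 9 of Ltb and 5 of Tnfsf14 in a library.

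Tnfrsf12a, or Fn14, is a small receptor known to be induced by growth factors and injury. It was at 28.8, 31.8 and 58.2 CPM in young replicates 1, 2 and 3 and at 41.4, 40.3 and 52.3 CPM in aged replicates 1, 2 and 3. Young replicate 3 was the highest of all 6, and the log2 fold change of 0.17 (standard error 0.29) became 0.57 without that library and -0.0015 without young replicate 1. Its ligand Tnfsf12 (TWEAK) was the most abundant ligand gene at 24.7 FPKM over the 6 libraries, with 27.9 to 44.6 CPM in young and 39.3 to 57.6 CPM in aged aorta and a log2 fold change of 0.49 (standard error 0.23, edgeR adjusted p = 0.517). Tnfsf12 overlaps the fusion gene Tnfsfm13 on its own strand, so reads from the shared bases cannot be told apart by strand. It also overlaps the antisense gene Tnfsf13os, whose reads cannot be separated without a stated strand setting.

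Tnfrsf19, or TROY, is known from the developing nervous system and hair follicles. It was the rarest receptor at 0.929, 1.12 and 0.903 CPM in young replicates 1, 2 and 3 and 0.421, 0.875 and 0.602 CPM in aged replicates 1, 2 and 3, from 14 to 45 counts. The groups did not overlap, but the nearest libraries, young replicate 3 and aged replicate 2, rested on 31 and 33 counts. The log2 fold change was -0.63 (standard error 0.48).

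**Figure D4:**
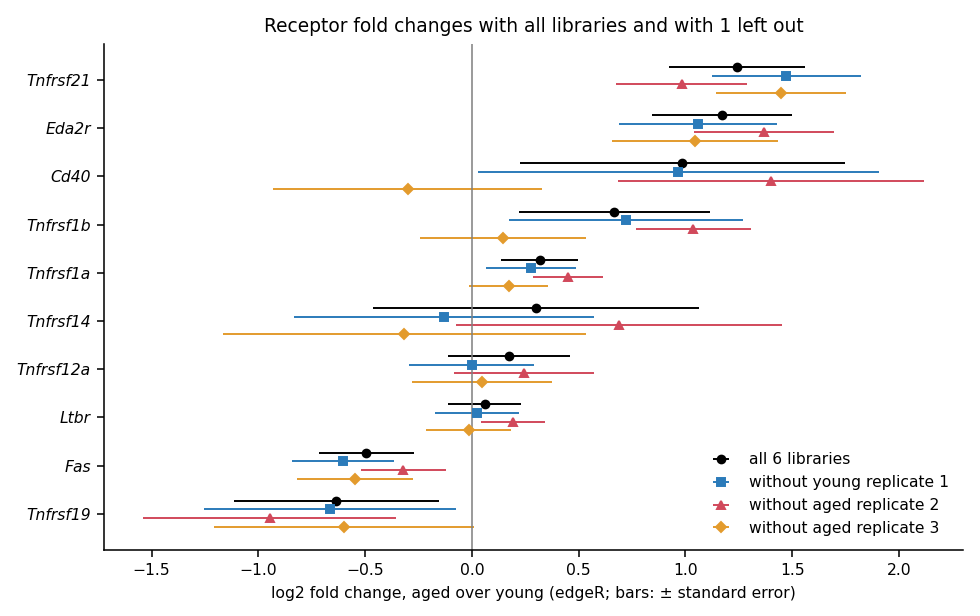
Log2 fold change of each receptor, aged over young, from edgeR with ± 1 standard error, for all 6 libraries and with young replicate 1, aged replicate 2 or aged replicate 3 left out. Tnfrsf21 and Eda2r stay at 0.98 or above in each of these fits, whereas Cd40 changes from 0.99 to -0.30 without aged replicate 3.

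Other genes of the pathway were read from 6 lists by role. These lists were written by hand with earlier results of these data known, so their counts beside those of all genes are descriptions. Of their 109 genes, 87 passed the filter and edgeR called 0, with 14 at an unadjusted p below 0.05 (9 higher and 5 lower in aged aorta) and 4 called by DESeq2 (3 higher and 1 lower). Over all genes tested, 5.56% were higher and 4.82% lower at that unadjusted p, and DESeq2 called 1.82%. Among the ligands, 6 of 18 passed the filter. Tnf itself had 8 counts in young replicate 1 and 0 in the other 5 libraries, and Tnfsf4, Tnfsf15, Fasl and Cd70 had 0 counts throughout. Tnfsf13b, which encodes the B cell factor BAFF, was at 2.27 to 3.76 CPM in young and at 10.1, 2.70 and 6.37 CPM in aged replicates 1, 2 and 3 (log2 fold change 1.15, standard error 0.49, edgeR adjusted p = 0.474). Tnfsf10 (TRAIL) was at 3.79 to 4.6 CPM in young and at 2.53, 3.02 and 10.2 CPM in aged replicates 1, 2 and 3. Tnfsf13 (APRIL) was at 0.776 to 1.88 CPM in young and 1.17 to 2.11 CPM in aged aorta.

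Of 18 other receptors of the family, 12 passed the filter, with 8 higher and 4 lower and a median log2 fold change of 0.19. Over all genes tested, 52.1% were higher and the median was 0.02. Every aged library lay below every young one in 1 of the 12 and above in 0, where 8.78% and 7.74% of all genes did. The most abundant per length were Tnfrsf11b (osteoprotegerin, the soluble decoy for RANK ligand) at 6.00 FPKM and Tnfrsf11a (RANK) at 5.97 FPKM, followed by Tnfrsf25 at 2.15 FPKM. Tnfrsf11b was at 17.0 to 18.7 CPM in young and at 34.9, 7.77 and 17.0 CPM in aged replicates 1, 2 and 3, so the aged libraries enclosed the young ones. Tnfsf11, which encodes RANK ligand, had 3 counts in aged replicate 3 and 0 elsewhere. Tnfrsf10b, the receptor of TRAIL, was at 12.4 to 19.1 CPM in young and 9.06 to 11.6 CPM in aged aorta without overlap (log2 fold change -0.60, standard error 0.23, edgeR adjusted p = 0.448). Tnfrsf18 (GITR) was at 0.599 to 2.27 CPM in young and 0.389 to 0.610 CPM in aged aorta, at a log2 fold change of -1.71 (standard error 0.61, edgeR adjusted p = 0.425). Relt was at 0.117 to 0.489 CPM in young and 0.421 to 1.11 CPM in aged aorta.

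Below the receptors, 30 of 31 adaptor and kinase genes passed the filter, and 14 were higher and 16 lower with a median log2 fold change of -0.02. Every aged library lay below every young one in 4 of the 30 and above in 0, where 8.78% and 7.74% of all genes did. Those most abundant per length, Rbck1 of the linear ubiquitin complex at 11.3 FPKM, the TAK1 partner Tab2 at 10.2 FPKM and the ubiquitin ligase Birc2 at 8.78 FPKM, had log2 fold changes of -0.05, -0.06 and 0.34. Ikbkg (NEMO), the regulatory subunit of the IkappaB kinase, was at 18.2, 9.69 and 16.2 CPM in young replicates 1, 2 and 3 and at 4.6, 3.05 and 6.94 CPM in aged replicates 1, 2 and 3. All aged libraries lay below all young ones (log2 fold change -1.60, standard error 0.37, edgeR adjusted p = 0.372, DESeq2 adjusted p below the threshold). Ikbkg overlaps G6pdx on the other strand, whose log2 fold change was 0.63 (standard error 0.33). Traf3, a brake on noncanonical NF-kappa B, was at 7.04, 22.8 and 5.33 CPM in young and 2.71, 2.89 and 5.17 CPM in aged replicates 1, 2 and 3, and Traf5 was at 32.7 to 35.1 CPM in young and 23.1 to 28.4 CPM in aged aorta, both without overlap and with edgeR adjusted p of 0.415 and 0.426. Traf3 overlaps 4930595D18Rik on the other strand, and the strand setting is not stated. Among the 7 genes of receptor shedding, 4 were higher and 3 lower with a median of 0.04. The inhibitor Timp3 was far the most abundant at 165 FPKM (log2 fold change 0.42, standard error 0.21), Rhbdf1 was at 11.9 and the protease Adam10 at 7.03 FPKM, and Sppl2b had a log2 fold change of -0.36 (standard error 0.28).

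**Figure D5:**
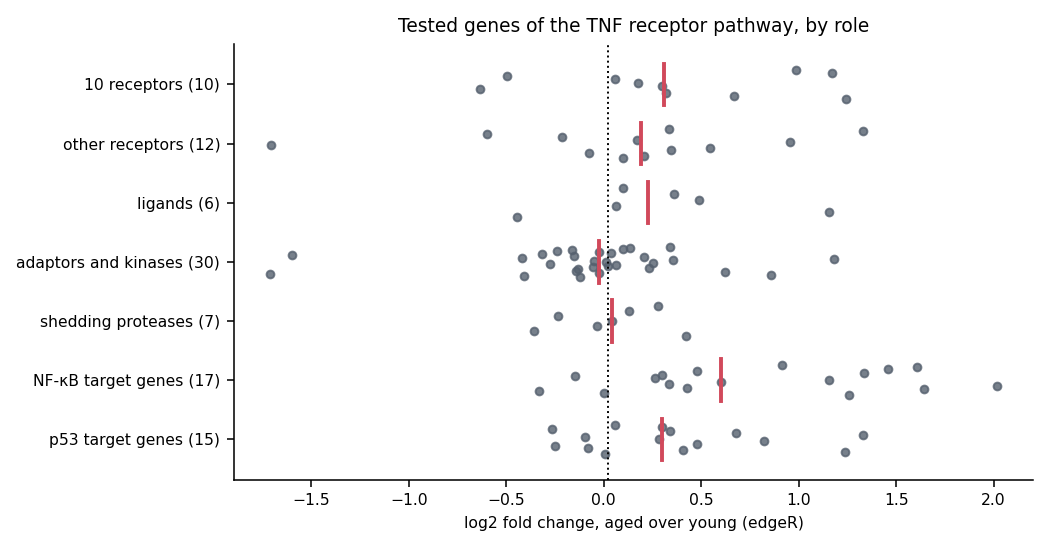
Log2 fold change, aged over young, of each tested gene (grey points) of the 10 receptors and of 6 lists by role, with the number of tested genes in brackets; red bars are list medians and the dotted line is the median of all genes (0.02). The points of the NF-kappa B target genes reach furthest to the right (median 0.60), and the adaptors center on -0.02.

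Genes that TNF induces through NF-kappa B were higher on average in 15 of the 17 that passed the filter, of 20 listed, where 52.1% of all genes tested were higher. Their median log2 fold change was 0.60, and edgeR called 0 of them. All aged libraries lay above all young ones in 4 of the 17, against 7.74% of all genes, and DESeq2 called 3, against 1.82%. Because the list was written with earlier results of these data known, these counts are not read as evidence. Nfkbia, the inhibitor that NF-kappa B induces against itself, was at 27.3, 44.3 and 44.0 CPM in young replicates 1, 2 and 3 and at 48.5, 100.2 and 109 CPM in aged replicates 1, 2 and 3. Birc3, a ubiquitin ligase of the receptor complexes, was at 10.4 to 12.7 CPM in young and 17.1 to 24.8 CPM in aged aorta, and Vcam1, an adhesion molecule, was at 35.6 to 41.5 CPM in young aorta and at 83.4, 45.6 and 149 CPM in aged replicates 1, 2 and 3. In all 3 the groups did not overlap, the log2 fold changes were 1.16, 0.91 and 1.26 (standard errors 0.34, 0.20 and 0.39), the edgeR adjusted p values were 0.382, 0.372 and 0.390, and DESeq2 called each of them. Sod2 was at 51.7 to 77.5 CPM in young aorta and at 59.3, 153 and 52.2 CPM in aged replicates 1, 2 and 3. The summed list was 295 to 320 CPM in young and 398 to 570 CPM in aged aorta, and was highest in aged replicate 3. That library had the most endothelial markers (1765 CPM), and the adhesion molecules Vcam1, Icam1 (40.4 CPM) and Sele (2.94 CPM) were all highest there. The summed macrophage markers were also higher in each aged library, though not each marker was. Aged replicate 2 lay above young replicate 1 in this sum only with Mertk included. The part of either cell type was not tested.

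Fas, Eda2r and Tnfrsf10b are known as p53 targets, and their log2 fold changes were -0.49, 1.17 and -0.60. Among 15 other p53 target genes, 11 were higher and 4 lower with a median log2 fold change of 0.30. Over all genes tested, 52.1% were higher and the median was 0.02. EdgeR and DESeq2 called 0 of the 15, and 2 were higher at an unadjusted p below 0.05, against 5.56% of all genes. Every aged library lay above every young one in 4 of the 15 and below in 1, where 7.74% and 8.78% of all genes did. Phlda3, a repressor of Akt, was at 20.7 to 36.8 CPM in young and 47.4 to 56.6 CPM in aged aorta (log2 fold change 0.82, standard error 0.23, edgeR adjusted p = 0.377). Trp53inp1 was at 64.7 to 81.0 CPM in young and at 82.1, 298 and 120 CPM in aged replicates 1, 2 and 3, and the cell cycle inhibitor Cdkn1a at 25.9 to 39.7 CPM and at 43.8, 67.7 and 34.9 CPM. Perp and Ccng1, abundant at 31.5 and 19.4 FPKM, had log2 fold changes of 0.28 and 0.34.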

How the data were processed

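RNA of 6 mouse aortas was sequenced. The authors deposited reads counted per gene as raw counts and a table of FPKM scaled by them for gene length and library reads. The labels name mm10, and the aligner, the counting tool and its strand setting are not given in the sources used here. Of 55335 Ensembl identifiers, 55154 were found in GENCODE M21. R 4.3.3 was used. Counts were filtered with edgeR 4.0.16 (filterByExpr, minimum count 10, minimum total 15), scaled by TMM and fitted by quasi-likelihood without covariates, with Benjamini-Hochberg adjustment over all genes tested and a threshold of 0.05. Log2 fold changes are unshrunken and the standard error is the change divided by the square root of F. The members and gene lists were chosen with earlier results of these data known, and the lists were written by hand. Named genes are all 10 receptors and, per pathway list, the 3 with the smallest p and the 3 with the highest mean FPKM. From each marker list the 2 with the highest mean FPKM and those at 0 counts were eligible, and further genes were chosen after their values were seen (Xist, Ddx3y, Sele, Icam1, Eda, Edar, Tnf, Lta, Ltb, Tnfsf4, Tnfsf11, Tnfsf14, Tnfsf15, Fasl, Cd70, Cd40lg and G6pdx). Alternatives were RLE size factors, other filters, the replicate block, DESeq2 1.42.0, limma 3.58.1 on log2(FPKM + 1) and log2(FPKM + 0.1), each library left out, and unadjusted p. The fit was tested on simulated data. Intervals of detection (3 counts) cover counting error only. The design text names 3 mice per group, which the replicates were taken to be.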

Additional observations from a re-analysis of the deposited data

How the results depend on the processing

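No receptor was called by edgeR with any setting of scaling, filter, block or left-out library. DESeq2 called 305 genes in all, 1 receptor and 4 pathway genes (Birc3, Ikbkg, Nfkbia and Vcam1). At an unadjusted p of 0.05 and a log2 limit of 0.1 there were 1723 genes, 2 receptors and 14 pathway genes. With 1 library left out the counts lay between 0 and 110 genes and between 0 and 1 pathway genes (Icam1), both highest without aged replicate 2, and stayed at 0 receptors. The log2 fold change of Ltbr turned to -0.17 with limma on FPKM at either pseudocount (-0.1657 and -0.1728), and lay between -0.0144 and 0.19 with 1 library left out. Those of Tnfrsf12a, Tnfrsf14 and Cd40 also changed sign with 1 library left out, with ranges of -0.0015 to 0.57, -0.32 to 0.93 and -0.30 to 1.40. Those of Tnfrsf21, Eda2r, Tnfrsf1a, Tnfrsf1b, Fas and Tnfrsf19 kept their sign under all 14 alternatives. Limma on log2(FPKM + 1) gave smaller values of 0.61 for Tnfrsf21 and 0.28 for Eda2r. Removal of mitochondrial genes and their copies, chosen after seeing the data, left 0 genes called. Adding replicate numbers as a block left 0 genes, 0 receptors and 0 pathway genes called by edgeR. The deviations of same-numbered libraries correlated at 0.0764, 0.15 and 0.104, and those of differently numbered libraries at -0.169 to 0.0856. The same-numbered values were not above 0.1 for each number, so no pairing was assumed, though a weak pairing cannot be told from these values. The ratio of Tnfrsf1a to Tnfrsf1b had a median of 18.4 in FPKM and of 12.4 in CPM. The causes were not tested.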

Other observations

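Among 9149 genes averaging 10 CPM or more, those whose centered log2 CPM lay closest to Tnfrsf21 over the 6 libraries were Slc41a3, a magnesium transporter family gene, Smim3 and Haus3, a subunit of the augmin complex of the spindle. Their root mean square differences from Tnfrsf21 were 0.211, 0.271 and 0.285 on the log2 scale. Slc41a3 was at 19.3, 10.8 and 16.9 CPM in young replicates 1, 2 and 3 and at 33.6, 40.3 and 18.8 CPM in aged replicates 1, 2 and 3, so its aged replicate 3 fell within the young range. Smim3 was at 13.3 to 14 CPM in young and 31.6 to 42.0 CPM in aged aorta, and Haus3 at 7.10 to 7.89 and 11.2 to 18.3 CPM. All 4 genes were highest in aged replicate 2.

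T cell markers summed to 1.61 to 8.22 CPM and neutrophil markers to 0.475 to 5.17 CPM over the 6 libraries, and Ly6g had 0 counts in all of them. Mesothelial markers, led by Upk3b and Msln, lay at 72.3 CPM in young replicate 2 and 73.7 CPM in aged replicate 3 and at 1.72 to 15.1 CPM in the other libraries. White adipocyte markers, led by Fabp4 and Cfd, summed to 1035 to 2185 CPM in young and 1098 to 2853 CPM in aged aorta, and Schwann cell markers, led by Pmp22 and S100b, to 81.9 to 200.2 and 199 to 240 CPM. Fibroblast markers, led by Dcn and Col1a1, summed to 3755 to 5832 CPM in young aorta and to 10080, 3379 and 7341 CPM in aged replicates 1, 2 and 3. Of the 8, 7 were higher on average in aged aorta (median log2 fold change 1.39), where 52.1% of all genes tested were. EdgeR called 0 of them and DESeq2 called 2, against 1.82% of all genes. All 8 smooth muscle markers were lower on average in aged aorta (median log2 fold change -0.32), and edgeR and DESeq2 called 0 of these.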
